A study of Mus musculus with 18 samples.

Results

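The 10 genes described here build and supply major histocompatibility complex (MHC) class I molecules: H2-D1, H2-K1, H2-T23, B2m, Tap1, Tap2, Tapbp, Psmb8, Psmb9 and Nlrc5. They were chosen by name, from 20406 genes with usable probe sets on the array, and all 10 were measured, by 130 probe sets annotated to 1 gene symbol each. The RNA came from the caudal corpus callosum, a white matter tract. The mice were C57BL/6 and ate food with 0.2% CPZ (cuprizone), which binds copper and makes oligodendrocytes die and myelin break down. Mice were Trem2 knockouts (TREM2-/-, KO) or wild type (WT), and Trem2 encodes a myeloid cell surface receptor for lipids and cell debris. There were 18 arrays in 4 groups: 3 KO and 4 WT arrays at the stage of 6 weeks, and 6 KO and 5 WT arrays at the stage of 12 weeks. All 4 groups received CPZ, and no array of mice on a plain diet was among the samples used here. The sample descriptions give the stage as the age of the mice, but the protocol for treatment names a range of ages and several feeding times, so the stage cannot be assigned to age or to time on CPZ. Which part of Trem2 the knockout removes, and whether mice were littermates or pooled, is not stated in the labels.

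MHC class I molecules show samples of a cell's own proteins on its surface, where CD8 T cells and natural killer cells read them. Proteins are cut into peptides by the proteasome, the TAP transporter carries the peptides into the endoplasmic reticulum, and a loading complex fits them into a groove of the class I heavy chain, which is held together by beta-2-microglobulin. Most brain cells carry little class I at rest, and interferons raise the whole set of genes together, in microglia and in other cells.

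Gene values are log2 signals, the median over the probe sets of a gene, so a difference of 1 is a fold of 2. Differences are KO minus WT with their standard error (SE), and a gene is said to have passed when its limma p, adjusted by Benjamini-Hochberg over all 16324 genes tested, was under 0.05. Array medians lay between 5.259 and 5.407, and precision is limited by how few arrays there were. The labels do not state that arrays came from different mice, so every p-value reflects the scatter among these samples, part of which may be technical. Trem2 was lower on every KO array than on every WT array at both stages, with a log2 difference of −1.49 ± 0.36 at 6 weeks and −2.09 ± 0.28 at 12 weeks (adjusted p of 0.248 and 0.00252). KO replicate 2 of 6 weeks stood apart: it had the lowest array weight of all (0.446), the highest summed signal of 15 myeloid marker genes (log2 of 14.19) and the lowest of 9 neuronal marker genes (log2 of 10.55). Because whole tissue was measured, more cells of a type and more RNA per cell cannot be told apart.

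At 12 weeks all 10 genes had a KO mean above the WT mean, against 52.4% of all genes tested. Of the 10, 1 passed, the heavy chain gene H2-D1, at 2.90-fold, where 0.368% of all genes passed as higher. Read by its brightest probe set, Nlrc5 was below 0 (−0.28). None of the 10 passed at 6 weeks, where 9 of the 10 differences were above 0, against 49.6% of all genes. Without KO replicate 2, 4 of those 9 were below 0. The median log2 difference of the 10 genes was 0.31 at 6 weeks, 0.65 at 12 weeks and 0.50 over both stages, against medians of all genes tested between 0.00 and 0.02. The sizes ranged widely. By the median over probe sets, the heavy chains, B2m and both immunoproteasome subunits lay between 0.57 and 1.53 at 12 weeks. The TAP genes, Tapbp and Nlrc5 lay between 0.04 and 0.39. This split depended on the probe sets read. By the brightest probe set Tap1 was at 0.81, Tap2 at 0.50 and Tapbp at 0.40. The heavy chains, B2m and the immunoproteasome subunits then lay between 0.48 and 1.17.

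**Figure D1:**
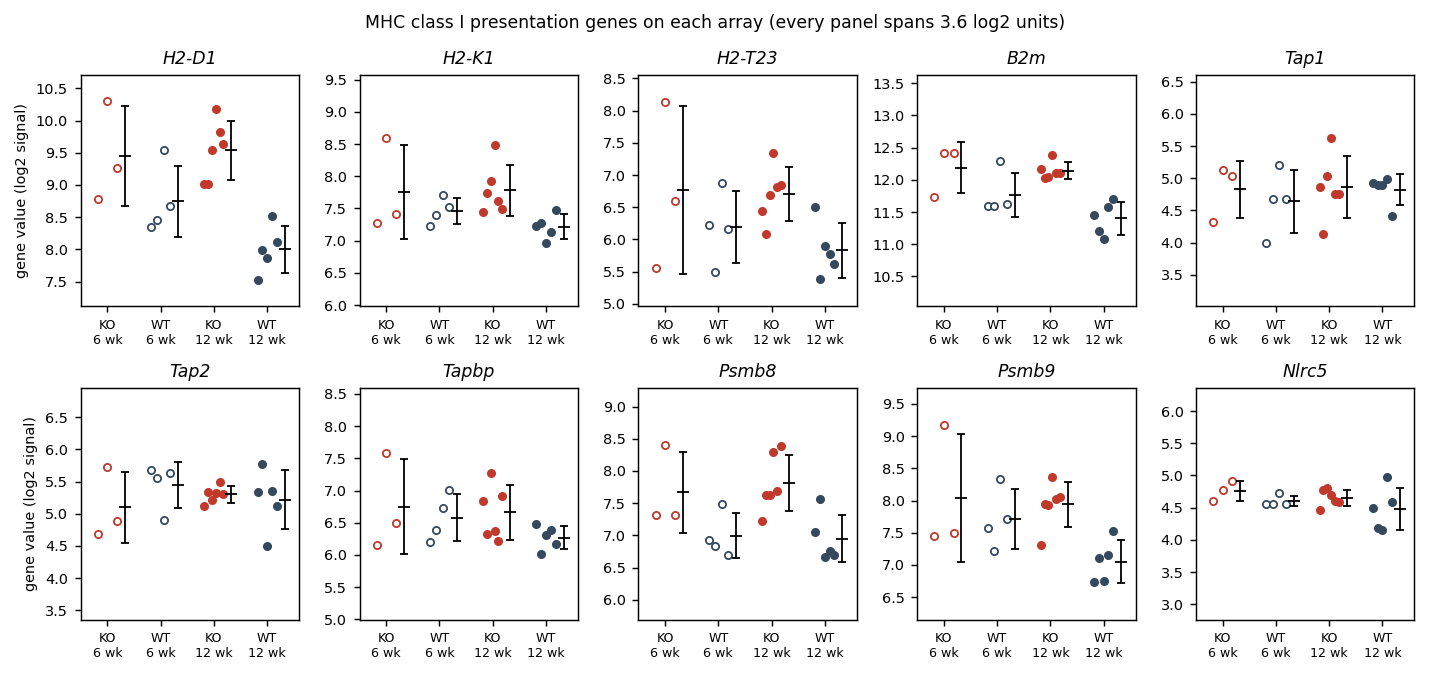
Values of the 10 class I presentation genes on each of 18 arrays (log2 signal, each panel spanning the same height), KO in red and WT in dark blue, open points for 6 weeks and filled points for 12 weeks, with the mean and SD of each group as a bar. At 12 weeks the KO and WT points of H2-D1 and B2m do not overlap, and at 6 weeks 1 KO array is the highest of its group for most genes.

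H2-D1 encodes a classical heavy chain, the peptide-binding part of the class I molecule that CD8 T cells recognise, and lies at chr17:35263094-35267497 (GRCm38.p6). At 12 weeks its 6 KO arrays ran from 9.02 over a median of 9.59 to 10.18, against 7.52, 7.99, 7.87, 8.52 and 8.11 on the WT arrays. Every KO array was above every WT array. The difference was 1.53 ± 0.29 (95% interval 0.94 to 2.13; adjusted p = 0.0273, limma), with p = 0.00433 by a two-sided exact permutation test, the smallest this test can give over 462 arrangements. Of all genes tested, 0.368% passed as higher in KO at 12 weeks and 0.0735% as lower. At 6 weeks H2-D1 had 8.78, 10.31 and 9.26 in KO, against 8.34, 8.45, 9.55 and 8.67 in WT. The highest WT array exceeded 2 of the KO arrays, and the difference of 0.70 ± 0.36 did not pass (adjusted p = 0.940, limma). It was 0.27 without KO replicate 2, and it ran from 0.27 to 1.03 with each array left out in turn. Over both stages, each weighted equally, the difference was 1.12 ± 0.23, or 2.17-fold (adjusted p = 0.0252), in a comparison in which 0.619% of all genes passed as higher and 0.0551% as lower. The call at 12 weeks was lost without WT replicate 1 (1.41, adjusted p = 0.0800), 3 (1.5, 0.0584) or 5 (1.56, 0.0518) and without KO replicate 3 (1.53, 0.0526), 4 (1.41, 0.0571), 5 (1.48, 0.0570) or 6 (1.52, 0.0621). The call over both stages was lost without KO replicate 2 of 6 weeks (0.90, adjusted p = 0.117), without WT replicate 1 (1.05, 0.0624) or 2 (1.07, 0.0641) of 6 weeks, and without WT replicate 1 of 12 weeks (1.06, 0.0527). It was also lost with each gene read by its brightest probe set (0.70, adjusted p = 0.0708), with replicate number as a block (1.09, 0.0554) and without the 2 arrays of lowest weight (0.89, 0.141).

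B2m encodes beta-2-microglobulin, the light chain shared by every heavy chain in this family, and lies outside the MHC region, on chromosome 2 (chr2:122147687-122153082). At 12 weeks it ran from 12.03 over 12.11 to 12.38 on the KO arrays, against 11.46, 11.21, 11.08, 11.58 and 11.70 on the WT arrays, again with no overlap. The difference was 0.74 ± 0.18, or 1.66-fold, which missed the threshold over all genes (adjusted p = 0.0709, limma), with an exact permutation p of 0.00433. H2-D1 and B2m were the 2 members whose groups did not overlap at 12 weeks, where 1.70% of all genes had every KO array above every WT array. At 6 weeks B2m had 11.73, 12.42 and 12.41 in KO, against 11.59, 11.59, 12.29 and 11.62 in WT. Here 2 of 3 KO arrays lay above all WT arrays, and the difference was 0.41 ± 0.22 (adjusted p = 0.940). No member had every KO array above every WT array at 6 weeks, against 2.72% of all genes, and with 35 arrangements the exact test cannot go below 0.0571 there.

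The start-site windows of the member with a call and of its light chain are shown because class I promoters are known for short elements read by interferon and NF-kappa-B pathways. Each runs from 250 bases before to 50 bases after a RefSeq start site (GRCm38.p6), written 5′ to 3′ on the gene's strand, and capitals mark matches to the motifs searched. H2-D1 is at chr17:35262844-35263143 on the plus strand, and its capitals are 2 overlapping kappa-B matches followed by 2 CCAAT matches. B2m is at chr2:122147437-122147736 on the plus strand, and its capitals are an interferon-stimulated response element (ISRE) core, a kappa-B match and a CCAAT match.
H2-D1: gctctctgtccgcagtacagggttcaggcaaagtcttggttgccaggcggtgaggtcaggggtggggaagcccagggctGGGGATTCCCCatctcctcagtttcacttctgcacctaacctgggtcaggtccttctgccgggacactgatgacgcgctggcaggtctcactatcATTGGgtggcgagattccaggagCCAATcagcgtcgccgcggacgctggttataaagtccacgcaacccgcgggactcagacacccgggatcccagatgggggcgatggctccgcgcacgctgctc
B2m: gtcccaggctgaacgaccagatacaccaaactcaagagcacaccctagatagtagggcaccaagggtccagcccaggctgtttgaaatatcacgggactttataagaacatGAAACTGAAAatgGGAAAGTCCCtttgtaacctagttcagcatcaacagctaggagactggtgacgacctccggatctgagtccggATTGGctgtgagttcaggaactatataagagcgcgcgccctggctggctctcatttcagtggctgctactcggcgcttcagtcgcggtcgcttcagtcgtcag
Windows were found for 8 of the 10 members, and both strands were searched. The ISRE core was taken as 2 copies of GAAA with 2 bases between them, and it was in 2 of the 8 members' windows, those of B2m and H2-T23, and in 3.44% of 32851 RefSeq windows. Other forms of the element were not searched, so a window without this exact match may still hold one. The kappa-B consensus was in 3 of the 8, those of H2-D1, H2-K1 and B2m, and in 8.46% of all windows. CCAAT was in 7 of the 8 and in 37.4% of all, and the interferon-gamma activated site TTCNNNGAA was in that of Psmb8 alone among the 8 and in 8.30% of all. A match describes letters in a window and was not tied to the array values.

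H2-K1 (chr17:33996012-34000619) encodes the other classical heavy chain. At 12 weeks its KO arrays ran from 7.44 over 7.68 to 8.49, against 7.23, 7.28, 6.97, 7.13 and 7.48 in WT, and 5 of 6 KO arrays lay above every WT array. The difference was 0.57 ± 0.23, with adjusted p = 0.352 (limma). H2-T23 (chr17:36029977-36032701) encodes Qa-1, a non-classical heavy chain that is read by an inhibitory receptor of natural killer and CD8 T cells. Its KO arrays ran from 6.09 over 6.75 to 7.34 at 12 weeks, against 6.51, 5.38, 5.89, 5.77 and 5.62 in WT, with 4 of 6 KO arrays above every WT array. The difference was 0.87 ± 0.35 (adjusted p = 0.357). At 6 weeks the differences of H2-K1 and H2-T23 were 0.29 ± 0.28 and 0.58 ± 0.44 and neither passed (adjusted p = 0.999 for each). Mouse class I heavy chains are close in sequence, so a probe set may take signal from several of them. The 5 probe sets of H2-D1 that the annotation also gives to other genes were not used, and whether the rest bind 1 heavy chain alone was not tested.

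Psmb8 (chr17:34198195-34201454) and Psmb9 (chr17:34182030-34187330) encode the LMP7 and LMP2 subunits, which replace constitutive catalytic subunits in the immunoproteasome and favour peptides that fit class I. Psmb8 ran from 7.23 over 7.66 to 8.38 on the KO arrays of 12 weeks, against 7.05, 7.56, 6.67, 6.76 and 6.70 on the WT arrays. Psmb9 ran from 7.31 over 7.98 to 8.37 in KO, against 6.73, 7.10, 6.75, 7.15 and 7.52 in WT. In each gene 5 of 6 KO arrays lay above every WT array. The differences were 0.86 ± 0.25 for Psmb8 (1.82-fold, adjusted p = 0.168, limma) and 0.89 ± 0.28 for Psmb9 (1.85-fold, adjusted p = 0.220). At 6 weeks Psmb8 had 7.31, 8.40 and 7.31 in KO, against 6.92, 6.84, 7.49 and 6.70 in WT, and Psmb9 had 7.45, 9.18 and 7.49 in KO, against 7.57, 7.22, 8.34 and 7.71 in WT. The difference of Psmb8 was 0.69 ± 0.32 (unadjusted p = 0.0421, limma), the member with the smallest p at that stage, and it did not pass (adjusted p = 0.889). Without KO replicate 2, the array at 8.40, it was 0.32, and with each array left out in turn it ran from 0.32 to 0.87. The difference of Psmb9 was 0.33 ± 0.36. It was −0.24 without KO replicate 2, and ran from −0.24 to 0.62 with each array left out.

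Tap1 (chr17:34187556-34197225) and Tap2 (chr17:34204479-34216321) encode the paired chains of the peptide transporter, and Tapbp (chr17:33919478-33929290) encodes tapasin, which bridges the transporter and the heavy chain. At 12 weeks Tap1 ran from 4.14 over 4.81 to 5.63 in KO, against 4.93, 4.89, 4.90, 4.99 and 4.41 in WT. The KO arrays lay on both sides of the WT arrays. The difference was 0.04 ± 0.24 (95% interval −0.47 to 0.55; adjusted p = 0.966, limma). Tap2 differed by 0.08 ± 0.22 (interval −0.38 to 0.54) and Tapbp by 0.39 ± 0.24 (interval −0.12 to 0.89), with adjusted p of 0.916 and 0.579. At 6 weeks Tap2, the member with a difference below 0 at that stage, was at −0.34 ± 0.28, Tap1 at 0.19 ± 0.31 and Tapbp at 0.17 ± 0.31, with adjusted p = 0.999 for each. Nlrc5 (chr8:94434335-94527272), the transactivator that switches on class I genes, differed by 0.17 ± 0.19 at 6 weeks and by 0.18 ± 0.15 at 12 weeks (adjusted p of 0.999 and 0.696). Its 12-week KO arrays ran from 4.47 over 4.65 to 4.81, within the WT arrays at 4.49, 4.19, 4.16, 4.97 and 4.59.

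Psmb9 and Tap1 are neighbours read in opposite directions from 1 short stretch, and their windows are shown because both genes start in it. Psmb9 is at chr17:34187281-34187580 on the minus strand and Tap1 at chr17:34187306-34187605 on the plus strand, and capitals mark the CCAAT match.
Psmb9: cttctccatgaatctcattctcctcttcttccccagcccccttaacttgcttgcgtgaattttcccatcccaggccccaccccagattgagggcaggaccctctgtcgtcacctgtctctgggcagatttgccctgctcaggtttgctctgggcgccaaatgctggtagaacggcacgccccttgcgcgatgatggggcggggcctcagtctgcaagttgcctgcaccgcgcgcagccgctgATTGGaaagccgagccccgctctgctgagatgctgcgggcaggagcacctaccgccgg
Tap1: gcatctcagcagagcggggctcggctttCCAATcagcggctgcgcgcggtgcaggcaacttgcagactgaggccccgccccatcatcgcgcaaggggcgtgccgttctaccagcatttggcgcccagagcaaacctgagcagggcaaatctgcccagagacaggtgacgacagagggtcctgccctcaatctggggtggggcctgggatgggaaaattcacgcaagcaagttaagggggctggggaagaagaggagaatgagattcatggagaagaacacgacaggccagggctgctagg
The windows share 275 bases, chr17:34187306-34187580, as reverse complements of each other, so the capitals are 1 match seen from both strands. Neither held an ISRE core, an interferon-gamma activated site or a kappa-B match. Across this shared stretch the KO minus WT value at 12 weeks was 0.89 for Psmb9 and 0.04 for Tap1, or 0.49 for the median of the brighter probe sets of Tap1, and the difference between the genes was not tested.

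**Figure D2:**
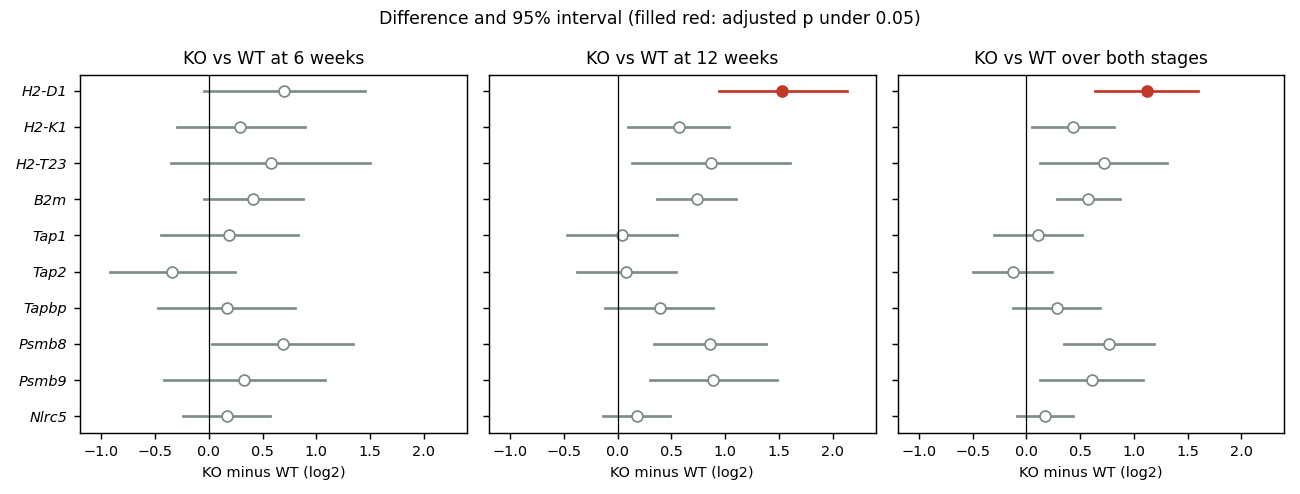
KO minus WT difference (log2, x axis) with its 95% interval for each class I gene (rows), at 6 weeks, at 12 weeks and over both stages, filled red where the adjusted p was under 0.05. H2-D1 is the filled point at 12 weeks (1.53) and over both stages (1.12), and at 12 weeks the points of Tap1 (0.04) and Tap2 (0.08) lie near 0.

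Without adjustment, limma p-values under 0.05 were reached as higher in KO by 1 member of 10 at 6 weeks, 6 at 12 weeks and 6 over both stages. The same rule took 3.27%, 6.85% and 5.97% of all genes. At 12 weeks the 6 were H2-D1, B2m, Psmb8, Psmb9, H2-K1 and H2-T23. Over both stages the adjusted p was 0.0780 for B2m (0.57 ± 0.14) and 0.103 for Psmb8 (0.77 ± 0.20). At 6 weeks 0.0429% of all genes passed in either direction, and the adjusted p of the members lay between 0.889 and 0.999.

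Stages were compared within each genotype. In WT the 12-week value was below the 6-week value for 9 of 10 members, with a median log2 difference of −0.28 (−0.61 with each gene read by its brightest probe set), and none passed, against 0.0184% of all genes. H2-D1 was at −0.75 ± 0.32 (unadjusted p = 0.0280, adjusted p = 0.530, limma) and Psmb9 at −0.66 ± 0.31 (unadjusted p = 0.0488, adjusted p = 0.583). In KO the members were split, 5 above and 5 below 0, with a median of −0.01, values between −0.11 and 0.19 and none passing, against 0.00613% of all genes. That median rested on single arrays of 6 weeks: it was 0.46 without KO replicate 2 and −0.24 without KO replicate 1. For H2-D1 the group means were in the order KO at 12 weeks (9.54 ± 0.46, SD, n = 6), KO at 6 weeks (9.45 ± 0.78, n = 3), WT at 6 weeks (8.75 ± 0.55, n = 4) and WT at 12 weeks (8.0 ± 0.36, n = 5), and no neighbours in that order differed by the adjusted test. The test of whether the genotype difference changed between stages passed for no member and for 0% of all genes. Its median over the members was 0.28, moving to 0.66 without KO replicate 2 and 0.01 without KO replicate 1 of 6 weeks, its largest value was 0.84 ± 0.46 for H2-D1 (unadjusted p = 0.0835, adjusted p = 0.949), and no member reached an unadjusted p under 0.05.

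Single probe sets show how far the gene values carry. At 12 weeks 94 of the members' 130 probe sets (72.3%) had a KO mean above the WT mean, against 49.1% of all 212097 probe sets with 1 symbol. In 19 of the 130 (14.6%) every KO array was above every WT array, against 0.716% of all, and in 0 the reverse held. Probe sets of 1 gene are not independent of each other, and 10 genes chosen by name supply these. All 7 of H2-D1 were above 0, from 0.48 to 1.83, and 5 of them did not overlap; the brightest gave 1.01 (adjusted p = 0.033 when each gene is read by its brightest probe set). All 5 of B2m lay between 0.58 and 0.81, and none of them overlapped. For H2-K1 11 of 13 were above 0 and 7 did not overlap, and the median of only the brighter probe sets, a reading chosen after seeing the data, was 0.97 for H2-K1 and passed (adjusted p = 0.0170, limma). Tap1 had 9 of 13 above 0, from −0.75 to 0.97, and 4 of its 13 had a mean signal above 5.35, the median of all probe sets on the array. Its brightest probe set gave 0.81 at 12 weeks (adjusted p = 0.243) and the median of its brighter ones 0.49 (adjusted p = 0.468), against 0.04 for the median of all 13. Nlrc5 was split, with 23 of 46 above 0, and its brightest probe set gave −0.28.

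**Figure D3:**
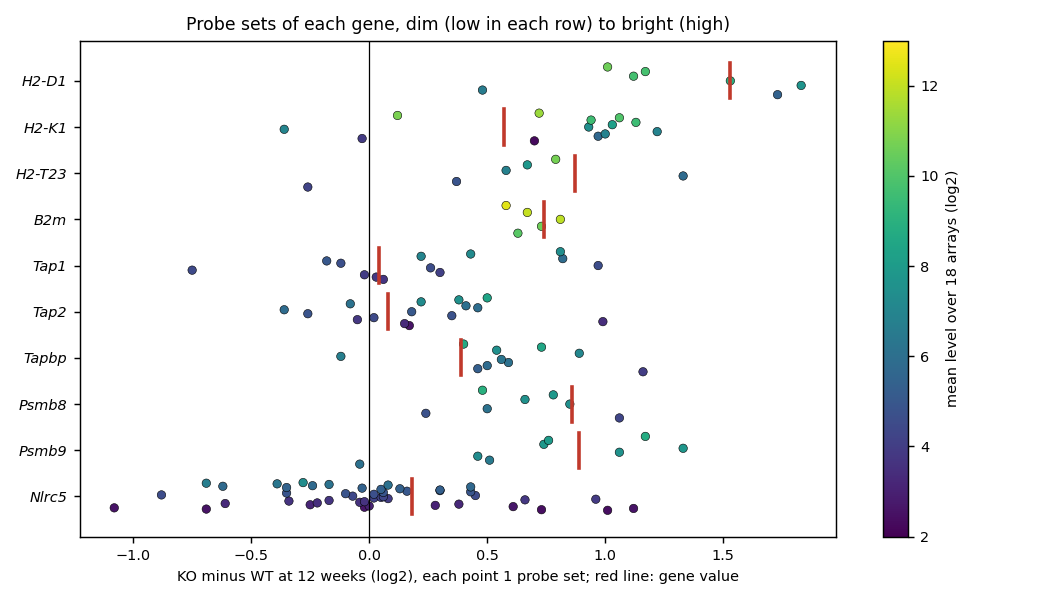
KO minus WT difference at 12 weeks (log2, x axis) of each of the 130 probe sets of the class I genes (rows), coloured by mean signal, dim ones low and bright ones high within a row, with the gene value as a red line. The probe sets of B2m and H2-D1 all lie right of 0, and those of Nlrc5 spread on both sides.

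Other genes of the pathway were read from lists chosen by function. Of 11 tested class I heavy chain and class I-like genes, 1 passed as higher (against 0.368% of all genes) and 0 as lower at 12 weeks. It was H2-Q7, which encodes a Qa-2 heavy chain, at 8.47 to 9.74 with a median of 8.89 in KO, against 8.25, 8.18, 7.51, 7.71 and 7.70 in WT. The groups did not overlap, and the difference was 1.13 ± 0.22 (2.18-fold, adjusted p = 0.0279, limma). H2-Q7 also passed over both stages at 0.92 ± 0.18 (adjusted p = 0.0143), as did H2-T24, another class I-like gene, at 0.94 ± 0.21 (adjusted p = 0.0424). H2-Q4 was not analysed here. Of 10 genes for other steps of loading, trimming and proteasome activation none passed in any comparison of genotypes; Psmb10, the remaining immunoproteasome subunit, was at 0.58 ± 0.23 and Psme2, a subunit of the PA28 activator, at 0.48 ± 0.21 at 12 weeks (adjusted p of 0.350 and 0.414). None of the 3 constitutive catalytic subunits passed, with Psmb7 at 0.34 ± 0.16 and Psmb6 at 0.31 ± 0.19. None of 14 regulators of class I transcription passed, with Stat2 at 0.54 ± 0.25 and Irf9, its partner in interferon signalling, at 0.57 ± 0.33. None of 5 tested interferon and receptor genes passed: Ifngr1, a chain of the interferon-gamma receptor, was at 0.49 ± 0.21 and Ifng itself at −0.34 ± 0.27.

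Other sets of genes with known ties to class I frame these values. Of 19 tested interferon response genes, 6 passed as higher (against 0.368% of all genes) and 0 as lower at 12 weeks, with a median difference of 1.04. Over both stages 8 passed as higher (against 0.619% of all genes), with a median of 0.84. At 6 weeks none passed, and the median was 0.64. At 12 weeks they were Rtp4 (2.37 ± 0.23), Ifit1 (1.62 ± 0.33), Igtp (1.45 ± 0.29), Bst2 (1.38 ± 0.29), Ifit3 (1.30 ± 0.20) and Ifitm3 (1.00 ± 0.21). Ifi44 (1.29 ± 0.28), Gbp3 (0.99 ± 0.21) and Ddx58 (0.84 ± 0.18) passed over both stages. Rtp4 fell by 1.71 on the log2 scale in WT between 6 and 12 weeks (adjusted p = 0.0150), the sole gene of these lists that passed between stages. None of 7 MHC class II genes passed in any comparison. At 6 weeks 6 were below 0 and 1 above, from −1.96 to 0.08, with a median of −0.46. At 12 weeks 5 were below 0 and 2 above, from −0.57 to 0.33, with a median of −0.10. The class II transactivator gene Ciita was at −0.50 ± 0.19 (adjusted p = 0.325, limma) and H2-Aa at −0.57 ± 0.35 (adjusted p = 0.575) at 12 weeks. All these lists were written with earlier results of these data known, and their medians were not tested against each other.

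**Figure D4:**
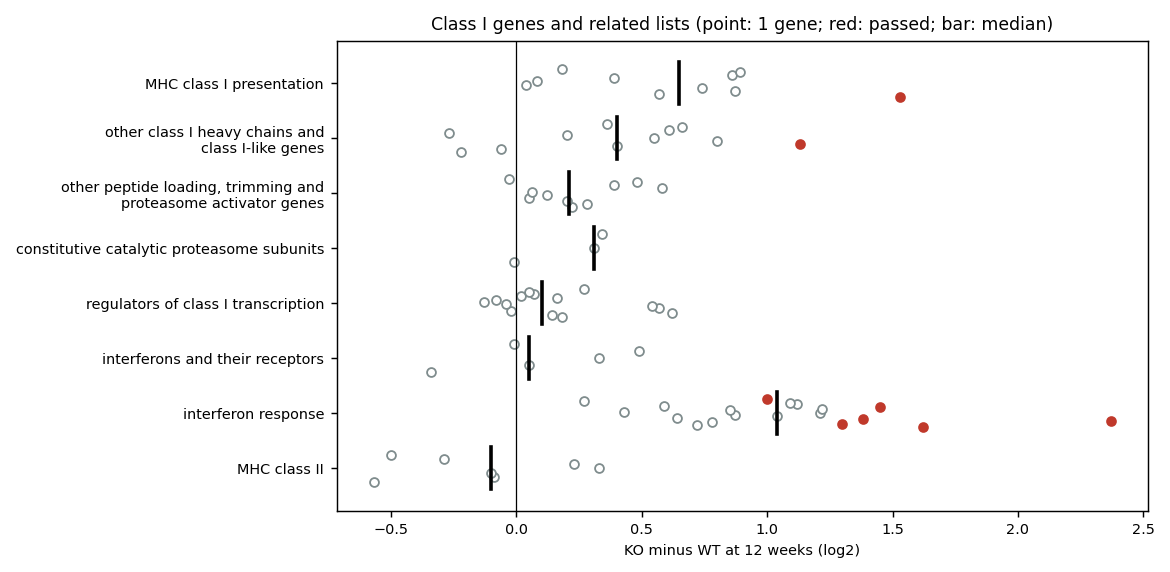
KO minus WT difference at 12 weeks (log2, x axis) of each tested gene in the class I presentation list and 7 related lists (rows), red where the gene passed, with the median of the list as a black bar. The medians are 0.65 for class I presentation, 1.04 for interferon response and −0.10 for MHC class II.

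Markers of the cells that whole tissue can hold were read beside these values. The 15 myeloid marker genes, of microglia and macrophages, had a summed log2 signal of 13.07 to 14.19 in KO and 12.12 to 13.69 in WT at 6 weeks, and 12.93 to 13.60 in KO and 12.30 to 13.03 in WT at 12 weeks. Itgam, the gene of an integrin chain of myeloid cells, was at 1.76 ± 0.27 at 12 weeks and Laptm5, a lysosomal gene, at 1.54 ± 0.30. These 2 of 15 passed, where 0.368% of all genes passed as higher. Over both stages 5 of 15 passed, Itgam (1.68 ± 0.21), Laptm5 (1.39 ± 0.24), Aif1 (1.18 ± 0.21), C1qa (1.06 ± 0.23) and Ctss (0.77 ± 0.17), against 0.619% of all genes. At each stage and over both, 13 of the 15 were above 0 and 2 below 0. The lowest was at −0.57 at 6 weeks, −0.31 at 12 weeks and −0.44 over both stages. The summed signal of the 8 astrocyte markers did not overlap at 12 weeks, at 12.67 to 12.87 in KO and 12.04 to 12.52 in WT. Nor did it overlap at 6 weeks, at 12.77 to 13.32 in KO and 12.15 to 12.69 in WT. All 8 astrocyte markers were above 0 at 12 weeks, and 7 were above 0 and 1 below 0 (−0.41) at 6 weeks. At 12 weeks 1 of the 8 passed, the bicarbonate transporter gene Slc4a4 (1.01 ± 0.17). Over both stages 2 of 8 passed, Slc4a4 (0.73 ± 0.14) and the glutamate transporter gene Slc1a2 (0.78 ± 0.14). Single markers did overlap, among them Slc1a2 at 12 weeks and Slc4a4 at 6 weeks. The summed signal of the 14 T and natural killer cell markers with probe sets did not overlap at 6 weeks, at 8.77 to 8.94 in KO and 8.13 to 8.59 in WT. There all 9 tested were above 0 with a median of 0.41, but the KO and WT arrays of Cd3e and of Cd8a overlapped. The summed signal ran from 8.23 to 8.78 in KO and from 8.0 to 8.45 in WT at 12 weeks. Of the 9 tested, 5 were above 0 and 4 below 0 at 12 weeks, with a median of 0.05 and a lowest value of −0.48. None of the 9 passed at either stage, and 5 of the 14 were under the filter on dim genes. The tested ones with the smallest p at 12 weeks were Ccl5, a chemokine gene, at 0.49 ± 0.20 (0.78 ± 0.25 with no overlap at 6 weeks) and Nkg7, a granule protein gene of killer cells, at 0.40 ± 0.21. Their defining genes Cd3e and Cd8a averaged 4.84 ± 0.68 and 4.21 ± 0.24 (SD, n = 6) in KO at 12 weeks, and 4.46 ± 0.39 and 4.34 ± 0.75 (SD, n = 5) in WT, and Ncr1 was under the filter. The 8 endothelial markers ran from 7.84 to 9.07 in KO and from 7.71 to 8.56 in WT at 12 weeks, and none passed, with Slco1a4 at 0.94 ± 0.42 and Pecam1 at 0.69 ± 0.31. The 8 choroid plexus and ependyma markers, of tissue next to the tract, ran from 10.26 to 12.96 in KO and from 8.83 to 12.63 in WT, all 8 above 0 with a median of 0.98, and none passed (Tmem212 2.20 ± 0.61, adjusted p = 0.136). The 9 oligodendrocyte markers ran from 10.72 to 12.61 in KO and from 10.70 to 12.28 in WT at 12 weeks. Their median was 0.32, with 7 above 0 and 2 below 0, Mbp at −0.78 ± 0.42 and Cnp at −0.32 ± 0.35. At 6 weeks all 9 were below 0, with a median of −0.62. The 9 neuronal markers ran from 12.22 to 12.87 in KO and from 12.50 to 12.91 in WT at 12 weeks, with a median of −0.07. None of the oligodendrocyte or neuronal markers passed. The part of any of these cell types in the class I values was not tested.

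Members were set against each other across the 18 arrays, as a description, since all genes of an array share its RNA. With group means removed, the 45 pairs had a median Pearson r of 0.43, from −0.06 to 0.85, and 43 were above 0. The closest pairs were H2-D1 and H2-K1, each with Psmb9, at 0.85 and 0.84. Against the mean of the other members over all arrays, H2-D1 had r = 0.90, H2-K1 and Psmb9 0.89, H2-T23 0.87, B2m 0.83 and Psmb8 0.78. Tapbp had 0.62, Nlrc5 0.47, Tap1 0.44 and Tap2 0.17. KO replicate 2 of 6 weeks and KO replicate 4 of 12 weeks were the arrays farthest from the median. Without both, the median r of the pairs over all arrays was 0.45, against 0.50 with them, and 38 of 45 were above 0.

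**Figure D5:**
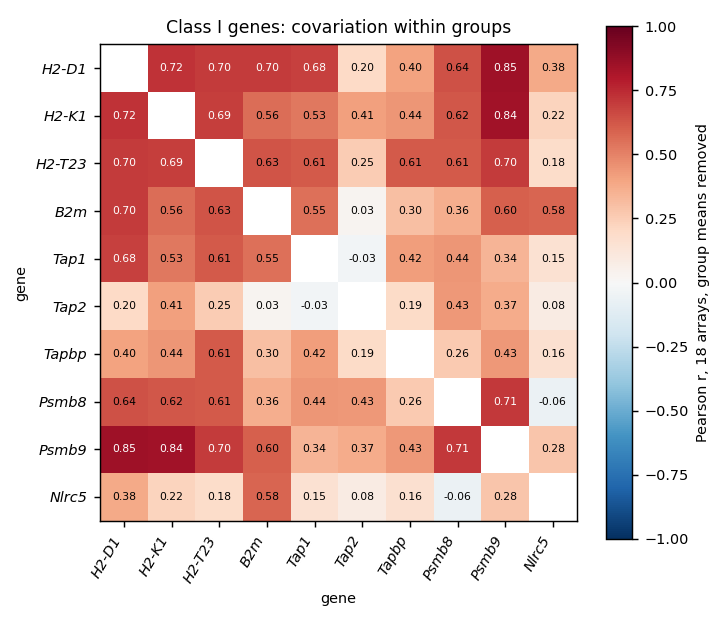
Pearson correlation between the class I genes over 18 arrays after each group's mean was removed (colour and printed value). The block of H2-D1, H2-K1, H2-T23, B2m and Psmb9 lies between 0.56 and 0.85, and the row of Tap2 between −0.03 and 0.43.

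Outside the pathway, the gene most like the members' mean across the arrays was Npc2, which encodes a sterol transfer protein of lysosomes, at r = 0.95 (Spearman rho 0.89), also 0.95 with group means removed. The next were C1qa (0.91), C1qb (0.90), which encode chains of the complement protein C1q, the Toll-like receptor relative Cd180 (0.91), the immune checkpoint gene Vsir (0.90) and the metalloproteinase inhibitor gene Timp2 (0.89). Selplg (0.89), the P-selectin ligand gene, Lgals9 (0.88), the galectin 9 gene, Lag3 (0.88), an MHC class II receptor gene, and Alox5ap (0.88), of leukotriene synthesis, completed the closest 10. With group means removed these 9 lay between 0.77 and 0.85, and without the 2 arrays farthest from the median the 10 lay between 0.79 and 0.91. C1qa and C1qb were also on the myeloid marker list.

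Sex, taken from the Xist signal and Y-linked genes, and the order of deposition divided the arrays further. The 12-week arrays fall into 2 runs of consecutive deposition, which may not mark a batch, with male KO and female WT arrays in the first and the reverse in the second. Each 12-week difference within a run is therefore also one between the sexes, and each within a sex also one between the runs. Within these subsets genotype cannot be told apart from the other factor. H2-D1 differed by 1.44 in the first run (3 KO, 2 WT) and 1.71 in the second (3 KO, 3 WT), and by 1.03 in males and 2.12 in females. B2m differed by 0.75 in each run, and by 0.63 in males and 0.87 in females. Psmb8 differed by 0.19 in the first run and 1.41 in the second, and by 0.78 in males and 0.82 in females. At 12 weeks 9 of 10 members were above 0 in males and 9 in females, 8 in the first run and 10 in the second. At 6 weeks the median of the members was 0.60 in males (2 KO, 2 WT) and 0.09 in females (1 KO, 2 WT). Leaving out KO replicate 2 moved the 6-week values: without it their median was −0.04 in place of 0.31, and H2-K1, H2-T23, Tapbp and Psmb9 were at −0.12, −0.11, −0.25 and −0.24. Leaving out other arrays moved them up as well. With each array left out in turn, the 6-week median ran from −0.04 to 0.58. The highest values of the same genes were then 0.54, 1.18, 0.46 and 0.62.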

How the data were processed

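RNA of the caudal corpus callosum was amplified, labelled with biotin and hybridised to 1-colour arrays, per the labels' protocols. The values are the authors' deposited log2 probe-set signals, 241576 on each of 18 arrays. Log base 2 was read from their range (0.732 to 13.674), and the authors' background correction, normalization and summarisation are not given in the sources used here. No background level was in the table, so no gene was called above background.

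Of the probe sets 212097 carried 1 gene symbol, 4475 several and 25004 none; the first kind was used. Old symbols (2688) were updated through a RefSeq table of GRCm38.p6, which gave the loci and promoter windows, and 107 of 20406 genes were not in it. A gene is the median of its probe sets (8 at the median). The lowest 20% of genes by mean (log2 of 3.41 or less) were left out; all 10 members passed.

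One limma model (3.58.1, R 4.3.3) held 4 group means of all 18 arrays, with 14 residual and 5.6 prior degrees of freedom, two-sided, and was tested on simulated data. Alternatives covered probe-set summary, filter, normalization, spread estimate, array weights, samples fitted, sex, deposition run, replicate block, threshold and leaving out each array. Every member is named; of other pathway lists, each gene that passed and otherwise the 2 with the smallest p at 12 weeks; of marker lists, their summed level, counts and some defining genes, with others added after their values were seen; and the 10 genes most correlated with the members' mean. The members and lists were chosen with earlier results of these data known. Tables and plots used Python 3.11.15, numpy 2.4.6, pandas 2.3.3, scipy 1.17.1 and matplotlib 3.10.9.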

Additional observations from a re-analysis of the deposited data

Results flagged for a closer look

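In 30 sets of a class I gene and a group of 4 to 6 arrays, 4 held an array far from the others by Dixon's test at 95%; chance alone marks about 1 in 20 such sets. In WT at 6 weeks replicate 3 was far above the others for B2m (12.29) and Nlrc5 (4.72) and far below them for Tap2 (4.91). In WT at 12 weeks replicate 5 was the lowest for Tap1 (4.41). The cause was not tested.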

How the results depend on the processing

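No member passed at 6 weeks, between stages or in the interaction under any of the alternatives run. At 12 weeks, where 1 member passed, 2 passed with the mean of the probe sets, with the brighter probe sets, with the trended robust spread estimate and at an adjusted p of 0.1, and 3 with array weights, with only the arrays of the groups compared and without the 2 arrays of lowest weight (KO replicate 2 and WT replicate 4 of 6 weeks); leaving out each array gave 0 to 2. B2m was the added member (adjusted p of 0.0161, 0.0250, 0.0498, 0.0272 and 0.0463) under the mean, trended, weighted, restricted and 2-array settings, joined by Psmb8 (0.0494) with weights and by Psmb9 (0.0400 and 0.0494) in the restricted and 2-array settings, and H2-K1 was the added one with the brighter probe sets. Over both stages, where 1 passed, 3 passed with the mean of the probe sets, 2 with the brighter probe sets, the trended spread and the looser threshold, and 0 with the brightest probe set (H2-D1 0.70, adjusted p = 0.0708), with the replicate block (H2-D1 1.09, adjusted p = 0.0554) and without the 2 arrays (H2-D1 0.89, adjusted p = 0.141); leaving out each array gave 0 to 2. B2m passed at 12 weeks without WT replicate 3 (adjusted p = 0.0462) or KO replicate 1 (0.0497) of 6 weeks, and over both stages without the same arrays (0.0210 and 0.0198). The deviations of KO and WT arrays of equal replicate number had correlations of −0.36 to 0.24 at 6 weeks and 0.02 to 0.10 at 12 weeks. The labels do not say whether the numbers pair samples, and these correlations cannot exclude it. With the block 1 member passed at 12 weeks (H2-D1, adjusted p = 0.0495), and stage comparisons could not be fitted. Directions turned only for members that had not passed. Over both stages Tap2 (−0.13) was at 0.07 with the mean, 0.16 with the brightest and 0.03 with the brighter probe sets. Nlrc5 was at −0.28 with the brightest and −0.13 with the brighter probe sets at 12 weeks, and at −0.12 and −0.04 over both stages. At 6 weeks Tapbp was at −0.07 with the brightest probe set, and without the 2 arrays Tapbp, H2-K1, H2-T23 and Psmb9 were at −0.11, −0.10, −0.12 and −0.24. Leaving out 1 array turned Tap1 at 6 weeks (−0.02 to 0.45), H2-K1 (−0.12 to 0.54), H2-T23 (−0.11 to 1.18), Tapbp (−0.25 to 0.46), Psmb9 (−0.24 to 0.62), and at 12 weeks Tap1 (−0.11 to 0.18, without WT replicate 5 or KO replicate 4) and Tap2 (−0.10 to 0.22, without WT replicate 3). Genes passing numbered 0 to 13 at 6 weeks (7 as reported), 38 to 239 at 12 weeks (72) and 55 to 178 over both stages (110), and 0 to 11, 15 to 130 and 44 to 187 when 1 array was left out (15 without WT replicate 3 or KO replicate 6 of 12 weeks, 44 without KO replicate 2 and 187 without KO replicate 1 of 6 weeks), so the share of all genes that passed moves with single arrays. The cause of these changes was not tested.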
